A study of Mus musculus with 24 samples.

Results

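The comparison described here set mouse embryonic stem cells (mESC) carrying the Q20 allele of Htt against wild-type (WT) mESC. It rests on 4 of the 24 libraries of the series, 2 of Q20 and 2 of WT, chosen by genotype and cell type as labelled. Q20 cells carried a knock-in allele of Htt (Hdh in the older nomenclature) with 20 CAG repeats, in the heterozygous state. The WT cells carried no knock-in, and their origin is not given in the sources used here. The other mESC libraries were an Htt knockout (KO) and heterozygous knock-in lines with 50, 92 or 111 repeats (Q50, Q92 and Q111), with 2 libraries each. They entered the fit to share the estimate of spread, and their values are given beside those of Q20 for part of the named genes. For the other genes, the text does not show whether a difference from WT was shared by these lines. All 12 mESC libraries came from cells kept in medium with serum and LIF (leukemia inhibitory factor) on gelatin and irradiated CF-1 mouse embryonic fibroblasts, per the labels' protocols. The series' design counts 2 biological samples per genotype and cell type, and whether these were separate clones or cultures of 1 line is not given in the sources used here. The p-values therefore measure the spread between these samples, and a property of 1 line cannot be told apart from an effect of its allele.

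Huntingtin, the product of Htt, is a large scaffold protein with roles in vesicle transport, transcription and early development. An expanded CAG repeat in its first exon causes Huntington's disease, and a repeat of 20 units lies in the range of unaffected people. The Q20 knock-in is therefore the usual control of such allelic series, and its comparison with WT measures what the knock-in line carries apart from an expansion. Embryonic stem cells in serum and LIF move between a naive state, a state nearer to the post-implantation epiblast and, in rare cells, primitive endoderm. Genes of the actin cytoskeleton, of the extracellular matrix and of DNA methylation are known to vary with that balance.

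The reference sequence that the knock-in alleles alter is shown first, because the length of its repeat defines the groups. It is the start of the mouse Htt coding sequence in exon 1 of 67, read from the GENCODE M21 transcript on GRCm38, chr5:34761907-34762005, plus strand. Capitals mark the longest uninterrupted run of CAG.
Htt coding start: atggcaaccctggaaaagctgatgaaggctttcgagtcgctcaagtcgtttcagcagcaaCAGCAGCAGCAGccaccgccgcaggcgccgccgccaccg
The run held 4 CAG units, from base 61 to base 72 of the coding sequence, at positions 34761967 to 34761978. With the CAG and CAA codons before it, the reference encodes 7 glutamines in a row at this place.

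Levels are given as normalised CPM, the authors' scaled read values, and differences as log2(CPM + 1) of Q20 minus WT with the standard error (SE) of the limma fit. Sequencing was deep, with 58546211 to 81502284 recovered reads per mESC library. In a principal component analysis, component 1 (31% of variance) parted the libraries by replicate number in every genotype. Component 2 (18%) placed WT and KO at 1 end and Q20 and Q111 at the other. The stem cell label was met by the defining markers. Pou5f1, which encodes the pluripotency factor Oct4, stood at 421 and 880 in WT and at 326 and 433 in Q20. Nanog, another core factor, stood at 284 and 433 in WT and at 441 and 235 in Q20. The libraries of WT and Q20 overlapped for both genes, and neither passed the test.

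Htt itself (ENSMUSG00000029104, chr5:34761740-34912534) stood at 124 and 113 in WT and at 146 and 122 in Q20. It lay at 111 and 152 in Q50, 94.4 and 106 in Q92 and 91.5 and 99.4 in Q111. The library labelled KO replicate 1 stood at 139 and that labelled KO replicate 2 at 68.5. Libraries of Q20 and WT overlapped, and the difference was 0.17 (SE 0.21, adjusted p 0.649). Over the alternatives it ran from 0.03 to 0.30, with adjusted p from 0.448 to 0.955. Of the 57 tested genes that start within 3 Mb of Htt, 4 were higher and 4 lower in Q20, 14.0% against 9.66% of all genes of chromosome 5, and their median was -0.06.

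Of 13916 genes tested, 1475 (10.6%) differed between Q20 and WT at an adjusted p under 0.05. In Q20, 823 (5.91%) were higher and 652 (4.69%) lower. The differences were of modest size for most of these genes: 440 of those higher and 225 of those lower reached 2-fold. A change of 8-fold or more was reached by 19 genes that rose and 3 that fell. All 1475 moved in the same direction in both replicate numbers. The Q20 libraries did not overlap the WT libraries for 1288 of them (87.3%), against 39.2% of all genes tested. Both counts were taken from the libraries on which the calls rest, so they describe the calls and are no separate support for them. The median difference over all genes was -0.04, to which the medians of the gene groups below should be compared. Likewise, the calls counted in each group below should be set beside the 5.91% higher and 4.69% lower of all genes. The number of calls rests on the other genotypes and on the pairing by replicate number. It was 45 in a fit with no term for replicate number. It was 0 when limma was given the 4 libraries of Q20 and WT alone, where 2666 genes had an unadjusted p below 0.05 (1097 with no term for replicate number).

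**Figure D1:**
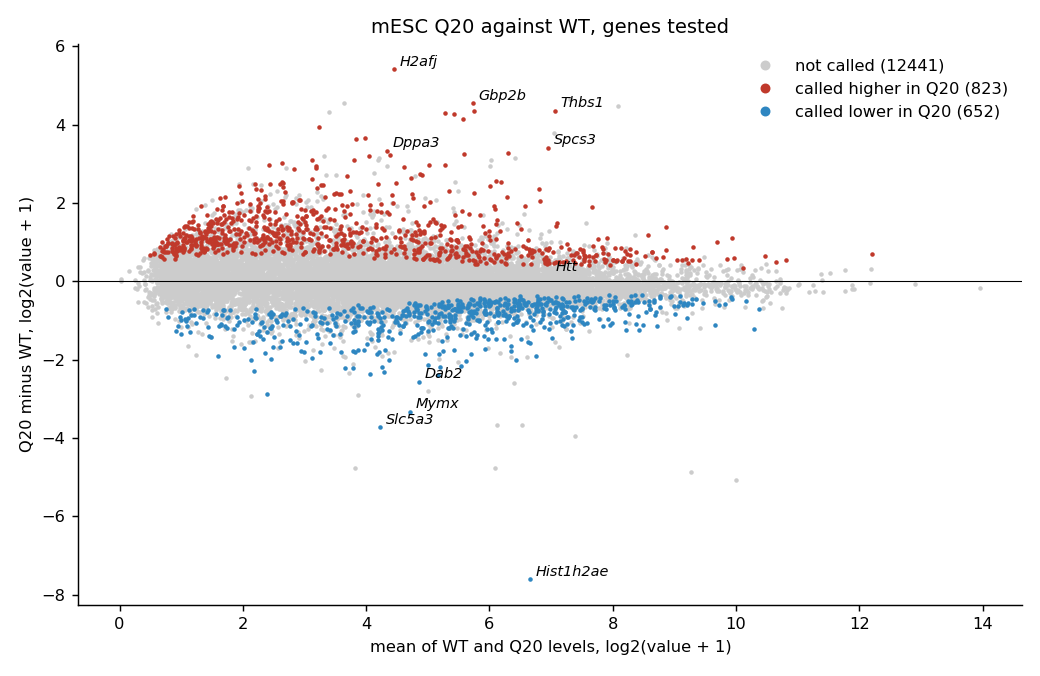
Difference between Q20 and WT mESC (log2(CPM + 1), vertical) against the mean of their levels (log2(CPM + 1), horizontal), 1 point per tested gene, with genes called higher in red and lower in blue. The 823 genes called higher include large rises such as Thbs1 and Spcs3 at intermediate levels, while Htt lies near 0.

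By rule, the text names the 12 genes with the largest rise and the 12 with the largest fall among protein-coding genes with a mean of at least 5 in the higher group and libraries that did not overlap. These were taken from 1027 such genes, 530 higher and 497 lower. Leaving out each of the 4 libraries in turn, 11 of the 24 were called in all 4 fits, 7 in some of them and 6 in none. The 11 were Thbs1, Acta2, Col1a2, Gbp2, Gbp2b, Gbp3, Dppa3 and Spcs3, which rose, and Ankrd44, Ppm1j and Hist1h2ae, which fell. Of the 24 genes, 6 overlap another protein-coding gene and 4 have a single exon. The 7 were Mymx, Prx, B3galnt1, Bbs10, Srgn, Dab2 and Tagln, and the 6 were Slc5a3, Psme2b, Itgam, H2afj, Tnc and Dpm3. Of all 93 called genes named by rule, list members included, 20 were called in all 4 fits. Besides the 11, they included Col1a1, Col5a2, Cdh2, Rhox5, Nxf3, Usp26, Tssc4 and 1700013H16Rik, and every other such call described in the text was lost without at least 1 library. The counting's use of strand is not given in the sources used here.

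**Figure D2:**
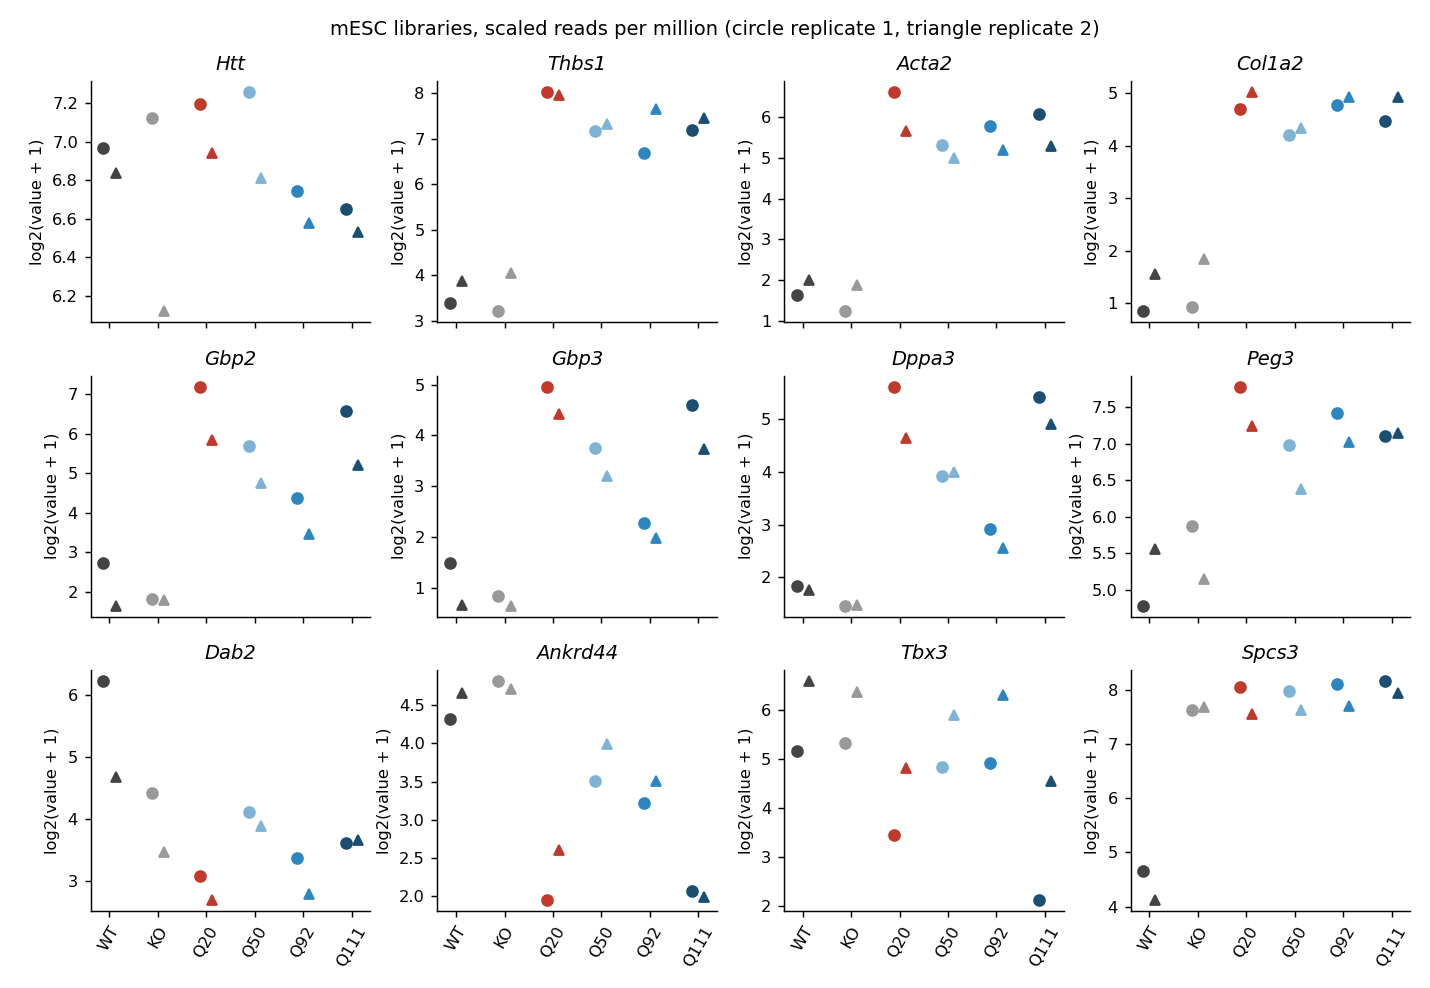
Levels of 12 genes in the 12 mESC libraries (log2(CPM + 1), vertical; genotype, horizontal; circles are replicate 1, triangles replicate 2). Thbs1, Acta2, Col1a2 and Gbp2 were lower in both WT and both KO libraries than in every knock-in library, for Gbp2 by a small margin in Q92, and Spcs3 was low in the 2 WT libraries alone.

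Genes of the contractile actin cytoskeleton rose in Q20. Of 20 tested genes of the list of targets of serum response factor (SRF) and actin genes, 12 were higher and none was lower, with a median of 1.05. Acta2, which encodes smooth muscle actin (chr19:34241090-34255590), stood at 2.13 and 3.03 in WT and at 96.5 and 49.6 in Q20. That is a 28.3-fold rise of the mean and a difference of 4.31 (SE 0.39, adjusted p 0.00323). Tagln, which encodes transgelin, an actin-binding protein of smooth muscle, stood at 3.07 and 3.47 in WT and at 141 and 38.6 in Q20. The rule that named both genes required libraries without overlap. All Q20 values lay far above WT for both, but the 2 Q20 libraries differed from each other, for Tagln by more than 3 times. Its difference was 4.13 (SE 0.65, adjusted p 0.0131), and the call was lost without WT replicate 1, WT replicate 2 or Q20 replicate 1. Tagln overlaps Pcsk7.

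The other members that rose were structural proteins of stress fibres and adhesions. They were the actins Acta1 (3.10), Actg1 (1.10) and Actg2 (1.00), the calponins Cnn1 (2.68) and Cnn2 (1.93), the tropomyosins Tpm1 (1.88) and Tpm2 (1.58), myosin light chain Myl9 (2.21), vinculin (Vcl, 0.87) and zyxin (Zyx, 1.72). Actg1, a cytoplasmic actin, was abundant, at 474 and 799 in WT and 1472 and 1187 in Q20. Actb, the other cytoplasmic actin, had a difference of 0.21 and did not pass the test (adjusted p 0.372). Srf itself did not pass either, at 0.15. When 1 library was left out, 4 to 8 members were called.

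Targets of the transcriptional co-activator YAP rose in part. Of 20 tested, 8 were higher and none lower, with a median of 0.59. Cyr61, a secreted matricellular protein and classic YAP target, stood at 3.86 and 9.70 in WT and at 63.4 and 48.9 in Q20, a difference of 2.97 (SE 0.40, adjusted p 0.00932). Igfbp3, which encodes an insulin-like growth factor binding protein, stood at 20.2 and 19.5 in WT and at 156 and 91.8 in Q20, a difference of 2.54 (SE 0.33, adjusted p 0.0084). Neither gene's Q20 and WT libraries overlapped. Ctgf (2.42), Ankrd1 (2.50), Axl (2.23), Tgfb2 (2.34), Ccdc80 (1.93) and Crim1 (0.90) also rose. Other listed targets such as Amotl2 (0.84), Lats2 (0.41) and Nuak2 (-0.42) did not pass the test. Without 1 library, 3 to 7 members were called.

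Thbs1 was among the most clearly separated genes of the comparison. It encodes thrombospondin 1, a secreted glycoprotein that binds integrins and activates latent TGF-beta (ENSMUSG00000040152, chr2:118111876-118127133). WT libraries stood at 9.56 and 13.7, KO at 8.29 and 15.7, and Q20 at 260 and 247. The rise was 21.8-fold, a difference of 4.35 (SE 0.25, adjusted p 0.000785), and it ran from 3.97 to 4.66 over the alternatives. Levels in Q50, Q92 and Q111 lay between 103 and 202, above WT and below Q20.

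Of 22 tested genes of thrombospondin ligands, their receptors and latent TGF-beta proteins, 6 were higher and 1 was lower. Among all genes, 5.91% were higher and 4.69% lower. Among ligands, Thbs3 (0.87), Tgfb2 (2.34) and Tgfb3 (1.19) rose with Thbs1, while Thbs2 (0.79), Thbs4 (0.46) and Tgfb1 (0.57) did not pass. Among receptors, the integrin subunit Itgb1 rose (0.79), the co-receptor Tgfbr3 fell (-0.87), and Cd47 (-0.20) and Itgav (0.17) did not pass. Without 1 library, 2 to 4 members of the list were higher and none lower.

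The type I collagen genes and tenascin C rose as well. Col1a2, a chain of type I collagen, stood at 0.808 and 1.95 in WT and at 25.1 and 31.4 in Q20, a difference of 3.65 (SE 0.23, adjusted p 0.000935). Col1a1, the other chain, stood at 0.494 and 0.850 in WT and at 8.76 and 14.2 in Q20, a difference of 2.87. Tnc, which encodes tenascin C, stood at 0.462 and 4.09 in WT and at 17.6 and 147 in Q20, a difference of 4.26 (SE 0.88, adjusted p 0.0266). For Tnc the libraries did not overlap, as the rule for naming it required. Replicate 2 was far above replicate 1 in both genotypes, and the call was lost when any of the 4 libraries was left out.

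These genes moved together with markers of fibroblasts, the feeder cells of the culture, a list that itself holds Col1a1 and Col1a2. Of 20 tested feeder fibroblast markers, 13 were higher in Q20 and none lower, with a median of 1.15. Their summed level was 86.3 to 98.0 in WT, 76.2 to 110 in KO, 231 to 286 in Q20 and 204 to 251 in the other knock-in lines. Among defining markers, Col3a1 stood at 0 and 0.142 in WT and at 3.81 and 13.6 in Q20. Prrx1 stood at 0.0494 and 0.230 in WT and at 0.593 and 2.89 in Q20, and Twist1 at 2.62 and 2.11 in WT and 2.86 and 2.10 in Q20. Thy1, a surface marker of fibroblasts, was at 9.66 and 11.3 in WT and 7.53 and 4.46 in Q20. Col3a1 rose, and Prrx1, Twist1 and Thy1 did not pass the test. When 1 library was left out, 4 to 6 of the markers were called. The part of feeder cells in the rise of the actin, YAP, thrombospondin and collagen genes was not tested. In such bulk samples, a change in the number of cells of a type and a change in RNA per cell cannot be told apart.

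The interferon-inducible guanylate-binding proteins formed another group of large rises. They are GTPases that act in defence against intracellular pathogens, and Gbp2, Gbp2b and Gbp3 are neighbours on chromosome 3. Their promoters are shown because the 3 genes rose together. The sequences are RefSeq's, build GRCm38.p6, and cover the 150 bases before the start site on the plus strand. Capitals mark each match on either strand to the core of the interferon-stimulated response element (GAAA, any 2 bases, GAAA), a motif chosen after the values were seen.
Gbp2, chr3:142620513-142620662: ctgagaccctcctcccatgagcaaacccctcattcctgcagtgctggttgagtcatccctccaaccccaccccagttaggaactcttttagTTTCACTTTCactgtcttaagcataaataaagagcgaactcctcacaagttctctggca
Gbp2b, chr3:142594697-142594846: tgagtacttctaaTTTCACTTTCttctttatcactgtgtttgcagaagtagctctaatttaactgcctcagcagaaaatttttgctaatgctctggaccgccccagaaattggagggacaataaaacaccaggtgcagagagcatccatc
Gbp3, chr3:142559894-142560043: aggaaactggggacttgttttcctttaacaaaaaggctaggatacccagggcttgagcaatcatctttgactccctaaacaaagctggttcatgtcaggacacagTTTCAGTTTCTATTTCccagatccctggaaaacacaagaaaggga
The match lies 59 to 50 bases before the start in Gbp2 and 137 to 128 bases before it in Gbp2b, and Gbp3 has 2 overlapping matches. RefSeq lists another start of Gbp3, whose window has no match. Of all 32851 promoter windows of 300 bases (250 before the start and 50 after), 3.44% hold the motif. A match describes the letters of the window and is not a measurement of binding.

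Gbp2 stood at 5.62 and 2.12 in WT and at 146 and 56.9 in Q20, a difference of 4.34 (SE 0.31, adjusted p 0.00117). Gbp2b stood at 4.96 and 1.19 in WT and at 158 and 43.5 in Q20, a difference of 4.54 (SE 0.31, adjusted p 0.00101). Gbp3 stood at 1.8 and 0.584 in WT and at 30.1 and 20.5 in Q20, a difference of 3.62 (SE 0.22, adjusted p 0.000785). Replicate 1 exceeded replicate 2 in both genotypes for all 3 genes. Every Q20 library lay above every WT library, which the rule for naming the largest rises required. Gbp2 and Gbp2b are close paralogs, so reads may have been split between them, and how such reads were counted is not given in the sources used here. Gbp2 in KO, at 2.45 and 2.51, lay within the WT range. In the other knock-in lines Gbp2 ranged from 10.1 and 19.6 in Q92 to 36.0 and 94.7 in Q111.

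Of 11 tested interferon-inducible GTPases, a list chosen after the values were seen, 9 were higher and none lower, with a median of 1.84. Besides the 3 above, Gbp4 (1.84), Gbp7 (1.91) and the immunity-related GTPases Tgtp1 (2.09), Igtp (1.77), Tgtp2 (1.51) and Irgm1 (1.44) rose. The interferon-stimulated motif was in at least 1 window of each of the 9 tested members that have a RefSeq entry, among them Irgm2 (1.44), which did not pass. In the interferon response list it was in 2 of 6 higher members and in 9 of the 18 tested ones with an entry. Both lists hold genes known to respond to interferon, so these motif counts describe the lists. In the interferon response list, 6 of 19 tested genes were higher and none lower in limma, with a median of 0.68, against 10 higher and 1 lower in DESeq2. Psmb8, an immunoproteasome subunit, stood at 1.20 and 0.212 in WT and at 21.7 and 7.71 in Q20 and rose by 3.10 (SE 0.40, adjusted p 0.00816). Ifit2, an antiviral RNA-binding protein, rose by 2.12 from levels near 0 (0.198 and 0.0354) to 2.52 and 5.70. Isg15, a ubiquitin-like modifier, rose by 1.67. Stat2 (0.06), Irf9 (-0.28) and Rsad2 (-0.02) did not pass the test, and Irf1, at 1.11, had an adjusted p of 0.0603. Without 1 library, 4 or 5 of the GTPases and 0 to 2 of the response genes were called.

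Pluripotency factors fell in part. Of 24 tested, 5 were lower and 1 higher, beside 4.69% and 5.91% of all genes, with a median of -0.42. Tbx3, a T-box factor of the naive network, stood at 34.7 and 95.4 in WT and at 9.92 and 27.2 in Q20, a difference of -1.74 (SE 0.31, adjusted p 0.0192). Klf5, a Krüppel-like factor, stood at 35.2 and 129 in WT and at 18.0 and 32.6 in Q20, a difference of -1.44 (SE 0.27, adjusted p 0.021). Within each replicate number Q20 lay below WT for both genes, and replicate 2 was above replicate 1 in both genotypes. The call of Tbx3 was lost when any of the 4 libraries was left out, and Klf5 kept its call only without Q20 replicate 1. Dppa5a (-1.11), Prdm14 (-0.91) and Tfcp2l1 (-0.90) also fell. Esrrb, an orphan nuclear receptor of the naive state, had a difference of -1.16 and an adjusted p of 0.0516. Without 1 library, 1 or 2 members were lower.

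Dppa3 was the single member of that list called higher. It encodes Stella, a maternal factor that protects imprinted loci from demethylation and is expressed in naive stem cells and germ cells (chr6:122626410-122630272). It stood at 2.59 and 2.37 in WT, 1.76 and 1.76 in KO and 48.3 and 24.1 in Q20. The rise was 14.6-fold, a difference of 3.34 (SE 0.27, adjusted p 0.0023). Q50 and Q92 lay between, at 4.91 to 15.0, and Q111 stood at 29.2 and 41.7.

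Markers of the epiblast after implantation changed in 2 of 12 cases, beside 10.6% of all genes tested. Cdh2, N-cadherin, stood at 2.04 and 3.90 in WT and at 12.9 and 23 in Q20, a difference of 2.24 (SE 0.21, adjusted p 0.00363). Dnmt3b, a de novo DNA methyltransferase, stood at 296 and 295 in WT and at 527 and 465 in Q20, a difference of 0.74 (SE 0.14, adjusted p 0.0197). Both genes separated the genotypes, but the call of Dnmt3b was lost when any of the 4 libraries was left out. Fgf5 (0.19) and Otx2 (0.20), markers of the formative epiblast, did not pass. In the mesendoderm list, Wnt3 (2.14) and T (0.93), a signalling ligand and a T-box factor of the primitive streak, rose among 6 tested. Nes, which encodes the intermediate filament nestin, was the single call among 10 neural markers, a share near the 10.6% of all genes. It stood at 8.42 and 21.2 in WT and at 158 and 123 in Q20, a difference of 3.28 (SE 0.43, adjusted p 0.00859). When 1 library was left out, 1 or 2 of the epiblast markers and at most 1 of the mesendoderm and of the neural markers were called.

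Primitive endoderm markers were lower in Q20. Of 16 tested, 10 fell and 1 rose, with a median of -1.19. Dab2, an endocytic adaptor of extraembryonic endoderm (chr15:6299788-6440712), stood at 74.1 and 24.6 in WT and at 7.50 and 5.46 in Q20, a difference of -2.56 (SE 0.36, adjusted p 0.0101). Amn, a subunit of the cubilin receptor complex, fell by 2.00, from 7.30 and 4.66 to 1.26 and 0.301. The transcription factors Gata4 (-1.69), Gata6 (-1.55) and Sox7 (-1.17) and the receptor Pdgfra (-1.75) also fell. So did the basement membrane genes Lama1 (-1.28), Col4a2 (-0.75), Col4a1 (-0.67) and Lamc1 (-0.47). Sparc, a matrix glycoprotein also made by fibroblasts, rose by 0.52. The summed level was 1530 and 1700 in WT, 1430 and 1450 in KO and 1040 and 1110 in Q20. It was not ordered by repeat length in the other lines, at 1790 and 1840 in Q50, 879 and 891 in Q92 and 1300 and 1370 in Q111. Without 1 library, 1 to 4 members were lower, and the call of Dab2 was lost without Q20 replicate 1.

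Keratins Krt8, Krt18 and Krt19, which many simple epithelia express, rose. They were the 3 calls among 8 tested trophoblast markers, whose median was 1.22 and of which 6 had Q20 libraries above WT without overlap (18.9% of all genes). Krt8 stood at 25.7 and 26.2 in WT and at 175 and 80.1 in Q20, a difference of 2.15 (SE 0.33, adjusted p 0.013). Krt19 stood at 4.80 and 6.25 in WT and at 153 and 24.0 in Q20, a difference of 3.26 (SE 0.63, adjusted p 0.0225). The defining trophoblast factors were low in both genotypes. Cdx2 stood at 0.0659 and 0.425 in WT and at 0.282 and 0.17 in Q20, and Gata3 at 0.198 and 0.868 in WT and at 0.815 and 1.53 in Q20. Hand1 stood at 0.0494 and 0.0885 in WT and at 0.341 and 1.01 in Q20, and Plac1 at 0.181 and 0.177 in WT and at 0.786 and 1.19 in Q20. Gata3 did not pass, and the other 3 were not tested because of their low values. Without 1 library, 0 to 3 members were called.

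**Figure D3:**
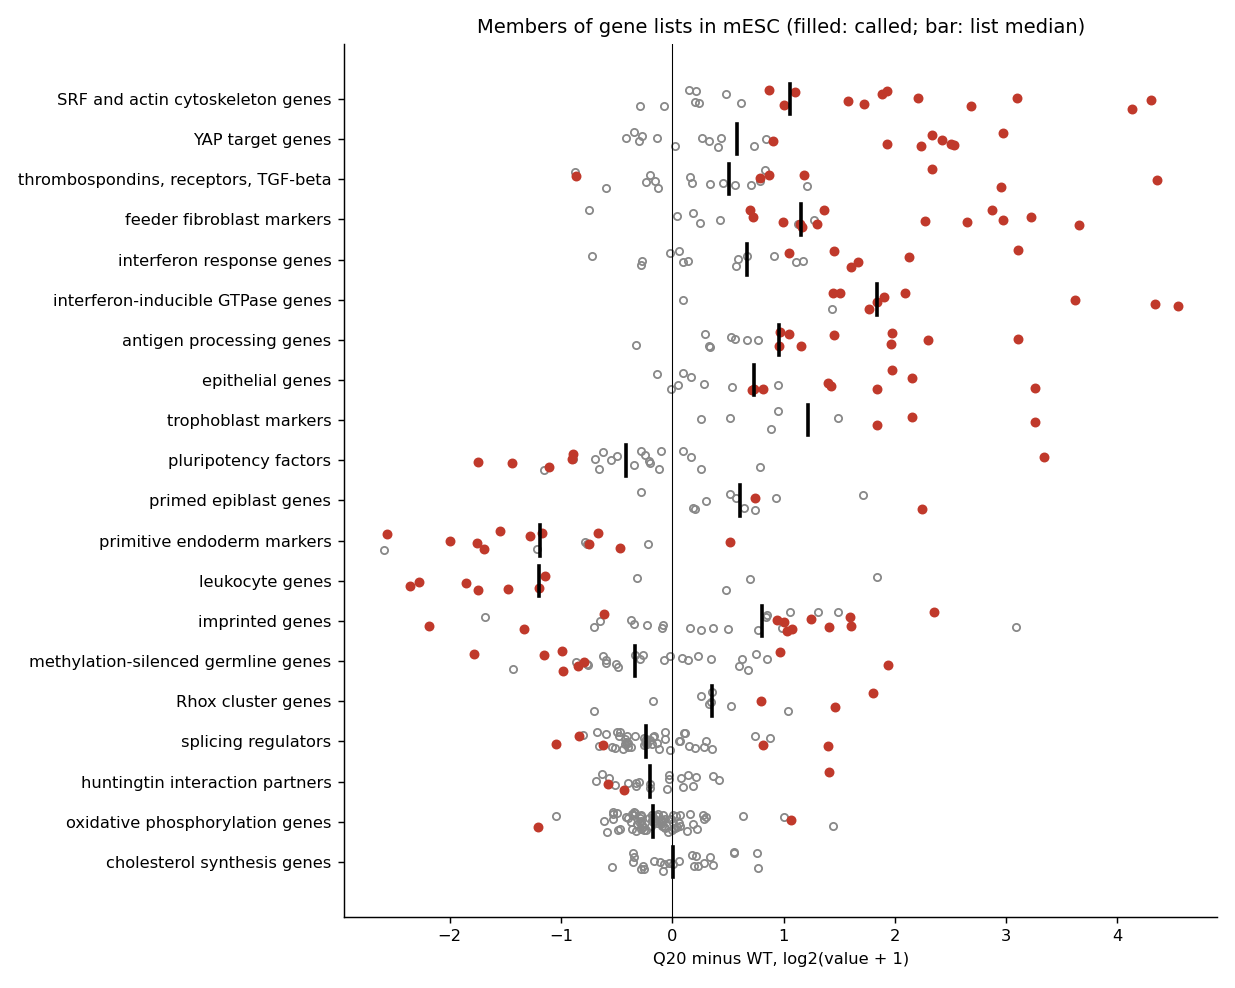
Differences between Q20 and WT mESC (log2(CPM + 1), horizontal) of the tested members of 20 gene lists, 1 circle per gene, filled where the gene was called, with a bar at the list median; vertical scatter within a row has no meaning. Medians of the actin list (1.05) and the feeder markers (1.15) lie right of 0, those of primitive endoderm markers (-1.19) left, and those of cholesterol synthesis genes near it.

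Imprinted genes, expressed from 1 parental allele and set by DNA methylation, changed in 12 of 32 cases, 9 higher and 3 lower, with a median of 0.81. Peg3, a zinc finger protein of the paternal allele, stood at 26.5 and 45.9 in WT and at 220 and 151 in Q20, a difference of 2.35 (SE 0.34, adjusted p 0.0106). Its neighbour Usp29 rose by 1.61. Plagl1 (1.59), Mest (1.41), Snurf (1.25), Snrpn (1.07), Sgce (1.03), Osbpl5 (1.00) and Nnat (0.94) rose too. Snurf and Snrpn share a locus, so reads of the pair may not be independent. Tssc4, a gene of the Kcnq1 domain on chromosome 7, stood at 20.7 and 40.3 in WT and at 5.09 and 6.07 in Q20, a difference of -2.19 (SE 0.22, adjusted p 0.00452). Every other mESC library held Tssc4 at 20.1 or more. Slc22a18 of the same domain fell by 1.34 and Ppp1r9a by 0.61. Without 1 library, 1 to 5 members were higher and 1 lower.

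Among 17 genes that write, read or erase DNA methylation, Dnmt3b rose and Zfp57 (-1.12), Tet2 (-0.91) and Dnmt1 (-0.38) fell. Zfp57 is the zinc finger protein that protects imprinted methylation, and it stood at 130 and 253 in WT and at 48.6 and 142 in Q20. Q20 lay below WT within each replicate number for Zfp57, although the ranges overlapped. Germline genes that promoter methylation silences went both ways, with 2 of 31 higher and 6 lower and a median of -0.34. Of all genes, 5.91% were higher and 4.69% lower. Dazl, an RNA-binding protein of germ cells, fell by 1.78 (SE 0.41, adjusted p 0.0366), from 58.2 and 198 to 20.4 and 45.7. Mael (-0.98), Asz1 (-0.99), Mov10l1 (-0.80), Tuba3b (-1.15) and Brdt (-0.85) fell, of which Mael, Asz1 and Mov10l1 act in the piRNA pathway. The 2 that rose lie on the X chromosome, 1700013H16Rik (1.94) and Xlr3c (0.96). Without 1 library, at most 1 of the methylation genes and at most 1 of the falling germline genes were called.

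Of 11 tested Rhox genes, reproductive homeobox genes of the X chromosome, 3 were higher and none lower, and 1 or 2 were called when 1 library was left out. Rhox5 stood at 40.0 and 31.5 in WT, 17.2 and 14.8 in KO, 96.1 and 103 in Q20 and 115 and 95.1 in Q111. It rose by 1.46 (SE 0.14, adjusted p 0.00452), while Q50 and Q92 lay at 33.5 or below, within or under the WT range. Rhox6 rose by 1.8 and Rhox2a by 0.80. Rhox genes are near-identical copies in part, and their counts are uncertain for that reason.

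Genes of 2 autosomes were shifted as a whole. On chromosome 8, 131 of 746 tested genes (17.6%) were called, 125 of them higher, and 85.0% of tested genes lay above 0, with a median of 0.41. On chromosome 11, 199 of 1152 (17.3%) were called, 188 of them higher, and 83.3% lay above 0, with a median of 0.39. The other 18 chromosomes apart from Y had medians between -0.18 and 0.01 and together held 504 higher and 635 lower calls. The shift ran along both chromosomes. In windows of 10 Mb with at least 20 tested genes, the median was 0.24 to 0.51 in 12 windows of chromosome 8 and 0.26 to 0.49 in 12 windows of chromosome 11.

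The 2 chromosomes stood apart in different libraries. Relative to all genes and libraries, the chromosome 8 median was -0.39 and -0.26 in the WT libraries and between -0.04 and 0.10 in the other 10, KO included. The chromosome 11 median was 0.16 and 0.29 in Q20, 0.16 and 0.35 in Q111 and between -0.21 and -0.01 in the other 8. In NPC, neural progenitor cells made from such lines, the medians of Q20 against WT were 0.28 on chromosome 8 and 0.27 on chromosome 11. The NPC median of chromosome 1 was larger in size, at -0.42, beside -0.18 in mESC. DNA copy number was not tested. Without the genes of chromosomes 8, 11 and Y, 1016 genes were called, 462 higher and 554 lower. Centring on chromosome medians left 6 interferon-inducible GTPases and 11 actin genes higher, in place of 9 and 12. It left 1 DNA methylation gene lower, in place of 3. The 8 YAP targets and 13 feeder markers called higher kept their number. Among genes named in the text, Acta1, Itgb1, Spcs3, Cdh1, Psmb10 and Esrp2 lie on chromosome 8 and rose, while Col4a1, Col4a2 and Siah1a lie there and fell. Actg1, Col1a1, Igfbp3, Wnt3, Sparc, Krt19, Cldn7, Igtp, Irgm1, Tgtp1 and Tgtp2 lie on chromosome 11 and rose, while Notum and Psme2b lie there and fell.

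**Figure D4:**
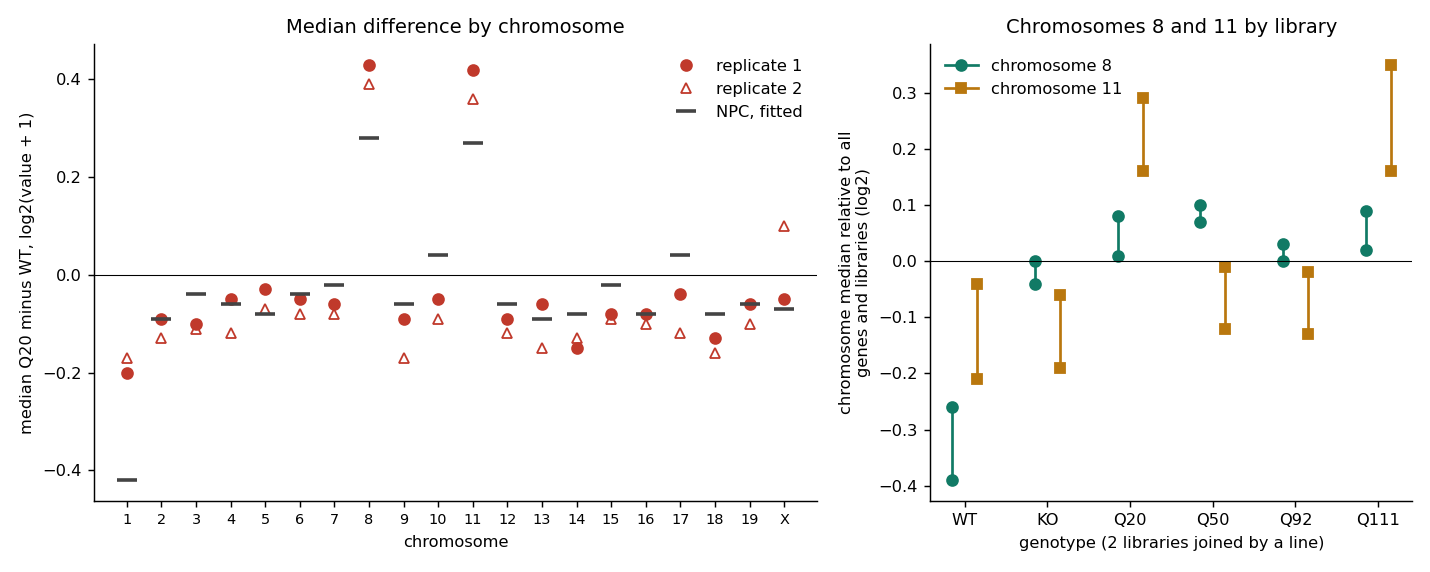
Left, median difference between Q20 and WT (log2(CPM + 1), vertical) for each chromosome in mESC replicates 1 and 2 and, as dashes, in NPC; right, the median level of chromosomes 8 and 11 in each mESC library relative to all genes and libraries. Chromosomes 8 and 11 lie near 0.4 in both replicates, chromosome 8 is low in WT alone, and chromosome 11 is high in Q20 and Q111.

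Genes of the Y chromosome were also higher in Q20, with 6 of 9 tested called and a median of 1.13. Eif2s3y, a translation initiation subunit, stood at 29.3 and 19.5 in WT and at 68.6 and 59.1 in Q20, a difference of 1.37 (SE 0.18, adjusted p 0.00816). Levels in Q92 were higher still, at 92.7 and 87.4. All 12 libraries held reads of this gene.

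Several of the largest differences were near switches between libraries. Hist1h2ae, a replication-dependent histone H2A gene with a single exon, stood at 150 and 251 in WT and was listed at 0 in both Q20 libraries (difference -7.61, SE 0.91, adjusted p 0.00731). Levels elsewhere ran from 47.7 to 411, and Q20 was the single genotype at 0. None of the other 37 tested histone genes of the list passed in limma with all libraries, while 1 was called higher without WT replicate 1 and DESeq2 called 3 higher. Single members such as Hist1h4d (-5.08) and Hist1h2bk (4.65) differed in both directions without passing. H2afj, another histone H2A gene, was listed at 0 in both WT libraries and in KO replicate 1, and stood at 46.5 and 36.9 in Q20. Its call was lost when any of the 4 libraries was left out. Near-identical histone copies and polyadenylation affect how such genes are counted, and both genes are uncertain. Dpm3, a subunit of dolichol-phosphate mannose synthase, stood at 0.297 and 0 in WT and at 19.9 and 13.6 in Q20, and at 0.0338 in Q92 replicate 1. Spcs3, a subunit of the signal peptidase on chromosome 8, stood at 24.3 and 16.3 in WT and between 186 and 286 in all other mESC libraries, a difference of 3.41 (SE 0.15, adjusted p 0.000416). Its separation was of WT from every other genotype.

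The remaining genes with the largest falls had varied roles. Slc5a3, a myo-inositol transporter that overlaps Mrps6, stood at 47.5 and 19 in WT and at 4.49 and 0 in Q20 (difference -3.73, SE 0.87, adjusted p 0.0368). Mymx, a small membrane protein of myoblast fusion, stood at 32.7 and 61.4 in WT and at 3.75 and 3.37 in Q20 (difference -3.33, SE 0.54, adjusted p 0.0141). Ankrd44, an ankyrin repeat protein, stood at 19 and 24.3 in WT and at 2.86 and 5.08 in Q20 (difference -2.22, SE 0.23, adjusted p 0.00502). Q111 was as low for Ankrd44, at 3.19 and 2.97, while Q50 and Q92 lay between. Ppm1j (-2.20), a protein phosphatase, and Prx (-2.38), which encodes periaxin, a scaffold protein of myelinating Schwann cells, fell as well. B3galnt1 (-2.31), a glycosyltransferase, Bbs10 (-2.22), a chaperonin-like protein of cilia, and Psme2b (-2.87), a single-exon copy of an immunoproteasome activator gene, completed the list with Srgn and Itgam. The calls of Slc5a3, Psme2b and Itgam were lost when any of the 4 libraries was left out. Mymx kept its call only without WT replicate 1, Prx only without Q20 replicate 2, B3galnt1 and Bbs10 only without Q20 replicate 1, and Srgn lost it only without Q20 replicate 1.

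The series addresses splicing, and the tables used here hold levels per gene, not isoforms. Of 49 tested splicing regulators, 2 were higher and 3 lower, with a median of -0.23. Esrp1, an epithelial splicing regulator, rose by 1.40 (SE 0.28, adjusted p 0.0253), from 32.6 and 11.2 to 59.1 and 46.4, and its paralog Esrp2 by 0.82. Srsf10 (-1.04), Hnrnpd (-0.84) and Srsf5 (-0.62) fell. Together that is 10.2% of the list, close to the share of all genes. Of 23 tested partners of huntingtin, Hip1, an endocytic adaptor, rose by 1.41 (SE 0.23, adjusted p 0.0141), and Prpf40b (-0.58) and Kif5b (-0.43) fell. When 1 library was left out, 0 to 1 regulators were higher and 0 to 2 lower, and limma called no partner. With all libraries, 8 of the 23 partners had an unadjusted p under 0.05 in limma, as did 3891 of all 13916 genes tested.

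Signalling and metabolic lists were counted in the same way, against 10.6% of all genes. In the BMP list Bmp4, a ligand that sustains self-renewal with LIF, fell by 2.05 (SE 0.32, adjusted p 0.0131), from 27.3 and 134 to 8.10 and 23.6. The BMP antagonist Grem1 rose by 1.55. Of the 16 tested genes of that list, 1 was higher and 1 lower, with a median of 0.3. In the Wnt list Cdh1 and T rose and Dkk1 (-1.12) and Notum (-0.83), both secreted Wnt inhibitors, fell among 14 tested. Calls were 1 of 22 for FGF and ERK response genes, 2 of 17 for LIF and STAT3 genes and 4 of 26 for p53 targets. They were 5 of 30 for glycolysis and hypoxia genes, 7 of 42 for DNA replication genes, 2 of 26 for ATF4 and stress genes and 2 of 77 for oxidative phosphorylation genes. Whichever of the 4 libraries was left out, limma called 0 of the FGF, LIF, glycolysis, DNA replication and ATF4 genes, at most 1 of the Wnt and of the oxidative phosphorylation genes and at most 2 of the p53 targets. After centring on chromosome medians, 1 DNA replication gene and 1 glycolysis gene were called, both lower. None of 25 cholesterol synthesis genes passed in limma, none was called by edgeR and 2 were called by DESeq2. In limma 5 of them had an unadjusted p under 0.05, against 3891 of all 13916 genes tested. In the protocadherin clusters 1 of 16 fell, and among 2-cell-like genes 1 of 14 rose.

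The other knock-in lines were set against Q20 to see where its level stood, using the same Q20 libraries. Against the mean of Q50, Q92 and Q111, 9 genes of 13916 (0.0647%) were called by limma, 6 higher (0.0431%) and 3 lower (0.0216%) in Q20, with 1899 at an unadjusted p under 0.05. The 6 were 1700013H16Rik, Pramel7, Rhox5, Usp26, Klhl13 and Lama3. The 3 were Tssc4, Hist1h2ae and Siah1a. Pramel7, a gene of naive embryonic cells, stood at 3.75 and 7.79 in Q20 and between 0.443 and 2.02 in the other knock-in lines, a difference of 1.66 (adjusted p 0.0174). For 1700013H16Rik, Rhox5 and Usp26 the mean of the 3 lines hides a split, since at least 1 Q111 library lay above both Q20 libraries. Siah1a, a ubiquitin ligase on chromosome 8, stood at 3.17 and 2.72 in Q20 and at 29.2 to 46.0 in Q92 and Q111. For Thbs1, Acta2 and Col1a2 the differences from the other knock-in lines were 0.74, 0.70 and 0.25 and did not pass, beside 4.35, 4.31 and 3.65 from WT. No call was left with no term for replicate number (599 genes at an unadjusted p under 0.05), and 3 were left without Q20 replicate 1.

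In NPC, which share no libraries with mESC and grew on laminin with FGF and EGF, the same genotypes differed in 1920 of 13206 genes (14.5%), 1317 higher (9.97%) and 603 lower (4.57%). Of the mESC calls, 1247 were tested there. Of these, 206 (16.5%) were called in NPC in the same direction and 107 (8.58%) in the opposite one. The 206 were 12.2% of the 1687 NPC calls tested in mESC. Among rises, 167 of 698 were shared, and among falls 39 of 549. Col1a2 rose in NPC by 4.24, from 0.631 and 0.552 to 33.1 and 25.4, and Thbs1 by 2.75, from 1.59 and 1.34 to 16.8 and 14.5. Peg3 rose there by 2.30 and Dab2 fell by 1.62. The NPC libraries of Q20 held Pou5f1 at 90.1 and 87.4, against 0.350 and 0.405 in WT, a level that goes against the label of neural progenitors, and its part in the shared calls was not tested.

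**Figure D5:**
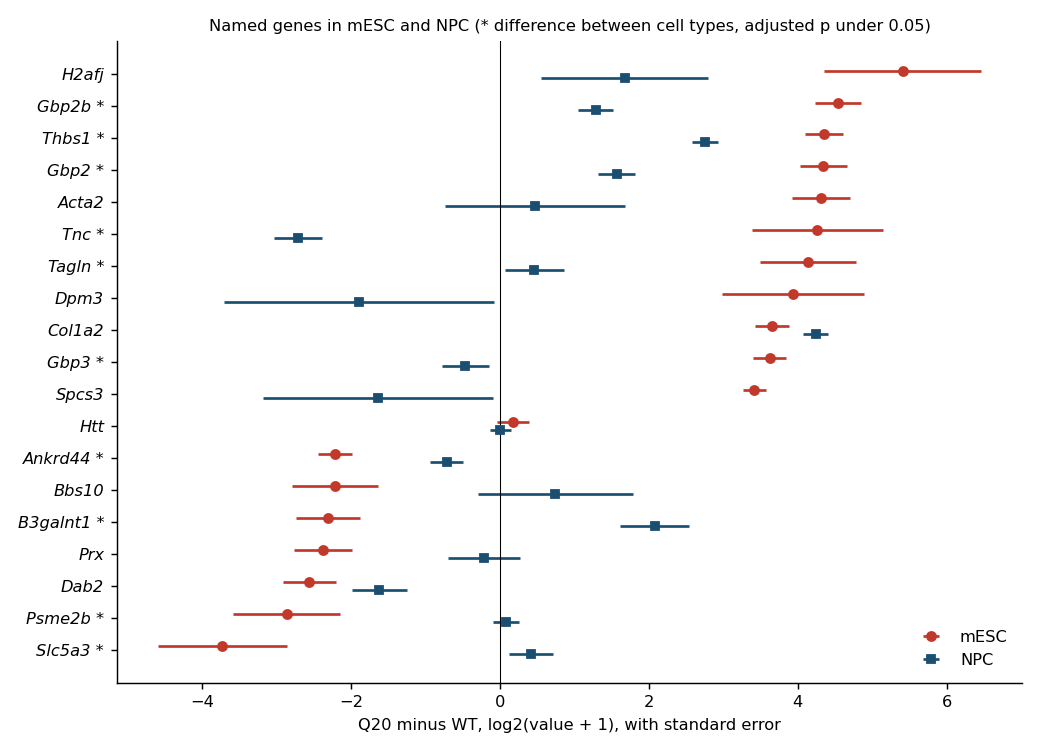
Differences between Q20 and WT (log2(CPM + 1), horizontal, with standard errors) in mESC (circles) and NPC (squares) for the 19 named genes tested in both. Col1a2 lies near 4 in both cell types, Tnc is positive in mESC and negative in NPC, and stars mark the 10 genes whose difference between cell types had an adjusted p under 0.05.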

How the data were processed

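Values were deposited by the authors as a normalised CPM signal per gene, in 1 table per cell type, and in all columns 100% of values were whole multiples of a step (tolerance 0.05), which gave back the reads. STAR, CASAVA 1.8 and GRCm38.p6 are named in the submitters' processing notes; the counting tool and its filter are not given in the sources used here. Of the 17501 genes of the mESC table (4 identifiers listed more than once, first entry kept), 13916 with a value of at least 1 in at least 2 libraries were tested and 3585 left out. limma 3.58.1 (R 4.3.3) was fitted to log2(CPM + 1) over all 12 mESC libraries, with 6 genotype means and the replicate number as a block, two-sided, Benjamini-Hochberg adjusted over all tested genes. This scale understates changes of low genes. The numbers pair the libraries: over the 15 pairs of genotypes the differences between replicates 1 and 2 correlated across genes at 0.25 to 0.547 (0.389 for WT and Q20). NPC were fitted alike without a block. Q20 libraries are shared by both mESC comparisons, which are not independent.

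The rule for named genes took Htt, the 12 largest rises and 12 largest falls described in the text, and up to 2 called members per direction of each list, and other members are named beside them. Members and lists were chosen with earlier results of these data known, and 5 lists (interferon-inducible GTPases, antigen processing, leukocyte, epithelial and X-linked germline genes) were added after the values here were seen. Gene positions and types come from GENCODE M21 (GRCm38), promoters from RefSeq. Alternatives were another pseudocount (0.1 or 5), filter or scaling, no block, fewer libraries, and edgeR 4.0.16 and DESeq2 1.42.0 on the recovered reads. The number of recovered reads bears on counting error only, while edgeR and DESeq2 also estimate the spread between libraries. A few genes are not reported here.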

Additional observations from a re-analysis of the deposited data

Results flagged for a closer look

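For 10 of the 19 genes with the largest changes (Htt included) that were tested in both cell types, the difference between Q20 and WT itself differed between NPC and mESC, by an interaction of cell type and genotype in limma. Over all 12321 genes in that fit, 1293 had an adjusted p under 0.05. Apart from Htt, the 19 genes were chosen for their large mESC differences, and the interaction uses the same mESC libraries. A smaller difference in NPC is favoured by that choice, so the share among the 19 cannot be compared with that of all genes. Values below are the NPC difference minus the mESC difference on the log2(CPM + 1) scale.

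Gbp2, Gbp2b and Gbp3, the guanylate-binding protein genes among the 19, rose less in NPC or did not pass there. The value was -3.26 for Gbp2b (adjusted p 0.000153), -2.78 for Gbp2 (adjusted p 0.00068) and -4.09 for Gbp3 (adjusted p 1.45e-05). Gbp2 and Gbp2b rose in NPC by 1.56 and 1.28, while Gbp3 had -0.47 and did not pass. Among matrix and actin genes the value was -1.6 for Thbs1 (adjusted p 0.00539), -6.98 for Tnc (adjusted p 0.000345) and -3.67 for Tagln (adjusted p 0.00909). Tnc was abundant in NPC, at 3189 and 6157 in WT against 646 and 702 in Q20, and fell there by 2.72.

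Among genes that fell in mESC, the value was 4.15 for Slc5a3 (adjusted p 0.0131), 2.95 for Psme2b (adjusted p 0.0242), 4.39 for B3galnt1 (adjusted p 0.000632) and 1.5 for Ankrd44 (adjusted p 0.0065). B3galnt1 rose in NPC by 2.08, from 0.893 and 1.94 to 9.82 and 8.15. The other 3 did not pass the test there.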

How the results depend on the processing

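The count of 1475 calls (823 higher, 652 lower) depended on the pairing and on how many libraries shared the spread. It was 45 (36 higher, 9 lower) with no replicate block and 12 (11 and 1) in edgeR with no replicate block, against 1282 (769 and 513) in edgeR with it. Fitting only the Q20 and WT libraries gave 0 calls, 0 higher and 0 lower, with the replicate block and without it. Leaving out each library gave 175 to 286 calls, 114 to 194 higher and 61 to 107 lower, of which 148 to 260 were among the 1475: 214 without WT replicate 1, 175 without WT replicate 2, 251 without Q20 replicate 1 and 286 without Q20 replicate 2. DESeq2 gave 2653 (1472 and 1181), 1467 of them among the 1475. With a mean of at least 5, 1043 were called (496 higher, 547 lower), so that 47.6% in place of 55.8% were higher. After centring on chromosome medians it was 870 (513 and 357), and without chromosomes 8, 11 and Y 1016 (462 and 554, 45.5% higher), both added after seeing the data. Pseudocounts of 0.1 and 5 (1460 and 1322), no filter (1480), quantile normalization (1283) and median-of-ratios scaling (1460) moved it less. No gene named by rule changed direction in any of the 18 alternatives that tested it, and the difference of Htt passed in none. Direction was not followed over the alternatives for the other members named beside them. With no replicate block 75 of the 93 called genes that were named lost their call, and 20 of the 93 kept it whichever library was left out. The fitted differences of H2afj (3.22 to 14.50) and Hist1h2ae (-16.97 to -5.32), listed at 0 in WT or in Q20, depend on the prior count and are no bounds. Q20 against the mean of the other knock-in lines gave 9 calls, 0 with no replicate block and 3 and 8 without Q20 replicates 1 and 2. The calls shared with NPC were 206, and 209 with the replicate block in NPC. Values far under 1 rest on the fewest reads and are the least precise.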

Other observations

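Lists of antigen processing, epithelial, leukocyte and X-linked germline genes were put together after the values were seen, so their counts describe these libraries and support nothing further. Of 17 tested antigen processing genes, 9 were higher in Q20 and none lower, and 0 to 3 were called when 1 library was left out (0 without WT replicate 2 or without Q20 replicate 1). Psmb10, an immunoproteasome subunit, stood at 12.6 and 12.7 in WT and at 72.7 and 59.9 in Q20 and rose by 2.30 (SE 0.35, adjusted p 0.0131). The peptidase Erap1 (1.97) and the peptide transporter subunits Tap2 (1.96) and Tap1 (1.05) rose, as did B2m (1.46) and Tapbp (0.97), while the class I heavy chain H2-K1 did not pass, at 0.52. Of 17 tested epithelial genes, 9 were higher (1 to 3 when 1 library was left out). These include the tight junction genes Cldn7 (1.98) and Cldn1 (1.43) and the adhesion genes Cdh1 (0.74) and Epcam (0.72). After centring on chromosome medians, 6 epithelial genes were called higher.

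Genes better known from leukocytes were lower in Q20, 7 of 11 tested gene models, with a median of -1.19, and 2 to 4 when 1 library was left out. Srgn, a proteoglycan of secretory granules, stood at 42.0 and 13.2 in WT and at 4.54 and 3.19 in Q20 and fell by 2.36. Ly75 (-1.48), Laptm5 (-1.86), Itgam (-2.28), Itgb7 (-1.19) and Cd38 (-1.15) fell too. Defining leukocyte genes were under the filter and did not go down together. Ptprc stood at 0.0494 and 0.301 in WT and at 0.133 and 0.405 in Q20, Csf1r at 0.181 and 0.372 in WT and at 0.371 and 0.862 in Q20, Lyz2 at 0.0494 and 0 in WT and at 0.104 and 0.274 in Q20, and Spi1 at 0.511 and 0.726 in WT and at 0.297 and 0.562 in Q20. A further gene model with the symbol Itgam overlaps the first and had 1.84 without passing.

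On the X chromosome, 6 of 19 tested germline genes were higher and none lower in limma, and 4 or 5 were higher when 1 library was left out. DESeq2 called 2 lower, and quantile normalization and median-of-ratios scaling 1 each. Usp26, a testis ubiquitin protease, stood at 26.3 and 13.6 in WT and at 130 and 103 in Q20 and rose by 2.55 (SE 0.26, adjusted p 0.00502). Q111 stood at 136 and 84.3, and Q92 at 14.7 and 4.61. Nxf3 (2.23) rose with it.

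Motifs in promoter windows were searched on both strands as plain letters. A gene was counted if any of its listed windows held the motif, while shares of all windows count each window by itself. GGAATG, the TEAD motif, was in 4 of the 6 higher YAP targets with a RefSeq entry and in 7 of the 14 tested ones, against 14.7% of all windows. The CArG box was a motif added after the values were seen. It was in 5 of 10 higher actin genes with an entry and in 7 of 17 tested ones, against 1.63%. None of the 14 tested YAP targets with an entry held it. Both lists hold known targets, so their motif shares describe the lists and are no result of these libraries. Among the 12 largest rises, 8 had an entry, of which 3 held GGAATG and 2 TATAAA (13.6% of all windows). None of the 8 held TGACGTCA (1.79%), CACGTG (7.15%) or the CArG box. Among the 12 largest falls, 11 had an entry, of which 2 held GGAATG, 3 TATAAA and none the last 3.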
